A study of Mus musculus with 24 samples.

Results

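The 8 genes described here encode the fatty acid desaturases Scd1, Scd2, Fads1 and Fads2 and the fatty acid elongases Elovl2, Elovl3, Elovl5 and Elovl6. They were taken by gene symbol, as a family chosen with earlier results of these data known, from an Illumina bead array of mouse liver with 45281 probes. Of those probes 11 were annotated to the 8 genes, and 10 of the 11 passed the filter on dim probes. All 8 genes were among the 11115 genes tested. The livers came from male C57BL/6J mice aged 16 weeks kept for 10 weeks on their diets, in 4 groups with 6 samples each. The high-fat high-sugar group had a high-fat diet and a drink with 23% w/v sugar. The high-sugar group had a normal diet with the same drink, the high-fat group had the high-fat diet with plain water, and the control group had the normal diet with plain water. The labels do not name the sugar, nor do they state whether the 6 samples of a group are 6 animals, and the p-values here reflect sample-to-sample spread, which may be technical. The comparisons ask what the sugar drink did to each gene on either diet, and what the fat did with either drink.

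Fatty acid desaturases put double bonds into fatty acids, and elongases lengthen them by adding carbons to the acyl-CoA in the endoplasmic reticulum. In liver the saturated products of fatty acid synthesis are lengthened by Elovl6 and desaturated by Scd1, which gives the monounsaturated fatty acids stored in triglyceride. The essential polyunsaturated fatty acids of the diet pass instead through Fads2, Elovl5, Fads1 and Elovl2, which make arachidonic acid and the long n-3 fatty acids of membranes. Several of these genes are textbook targets of the lipogenic factors SREBP-1c, ChREBP and LXR, and polyunsaturated fatty acids lower their transcription.

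RefSeq promoter sequences (mouse build GRCm38.p6, from 250 bases before to 50 bases after the start of the gene, on the gene's own strand) were matched for 4 of the 8 genes, Elovl2, Elovl5, Elovl6 and Fads2. The promoters of Elovl6 (chr3:129532136-129532435, plus strand) and Fads2 (chr19:10101454-10101753, minus strand) are shown because both genes fell with the sugar drink on either diet. That of Elovl5 (chr9:77917115-77917414, plus strand) is shown beside them because this gene rose with the high-fat diet. Capitals mark the E-box CACGTG, the NF-Y box CCAAT or its reverse complement ATTGG, and the GC box GGGCGG, searched on both strands.
Elovl6: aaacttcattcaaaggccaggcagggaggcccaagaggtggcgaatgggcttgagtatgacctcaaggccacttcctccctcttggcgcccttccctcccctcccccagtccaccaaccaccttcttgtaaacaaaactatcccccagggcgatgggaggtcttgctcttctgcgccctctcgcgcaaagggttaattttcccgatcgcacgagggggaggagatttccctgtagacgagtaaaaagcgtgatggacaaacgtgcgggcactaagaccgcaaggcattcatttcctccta
Fads2: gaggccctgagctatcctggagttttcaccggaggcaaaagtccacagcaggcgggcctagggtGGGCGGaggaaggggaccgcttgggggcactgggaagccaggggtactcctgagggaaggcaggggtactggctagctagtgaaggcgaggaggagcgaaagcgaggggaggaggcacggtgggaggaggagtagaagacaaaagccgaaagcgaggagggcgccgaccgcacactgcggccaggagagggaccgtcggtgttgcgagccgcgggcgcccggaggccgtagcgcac
Elovl5: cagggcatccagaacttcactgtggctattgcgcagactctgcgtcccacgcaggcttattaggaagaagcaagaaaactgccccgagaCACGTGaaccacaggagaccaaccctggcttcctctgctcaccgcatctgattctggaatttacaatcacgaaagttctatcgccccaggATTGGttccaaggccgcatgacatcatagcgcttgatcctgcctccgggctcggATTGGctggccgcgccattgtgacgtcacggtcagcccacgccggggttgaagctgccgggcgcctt
The Elovl5 window held 1 E-box, 161 bases before the start, and 2 NF-Y boxes, 71 and 17 bases before it. The Fads2 window held 1 GC box, 186 bases before the start, and the Elovl6 window held none of these letters. Among 32851 RefSeq promoters of this length, 7.15% held the E-box, 37.4% the NF-Y box and 35.7% the GC box. The sterol response element TCACNCCAC, in 1.24% of promoters, was in none of the 3 windows. Direct repeats of AGGTCA with 1 base between them (DR1, 0.0396% of promoters) or 4 bases (DR4, 0.0152%) were also in none of them. A match is a description of these letters, and these elements are searched here only in a strict spelling.

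Values are intensities in array units, already background-subtracted and normalised across arrays when deposited. The noise limit lay between 6.50 and 6.52 on the 24 arrays, and between 17976 and 18010 probes exceeded it on each. Differences are log2 of intensity plus an offset of 32, which shrinks the differences of dim probes. They are given with their standard error from limma fitted over all 24 samples, and with p-values adjusted by Benjamini-Hochberg over all 11115 genes. A gene was called at an adjusted p below 0.05. Correlations between arrays were 0.986 to 0.996 within groups and 0.973 to 0.992 between groups.

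On the normal diet 5 of the 8 genes fell with the sugar drink (Scd1, Elovl6, Elovl3, Fads2 and Fads1) and none rose. Of all genes tested in this comparison 28.9% were called, and 14.0% of all genes were lower. On the high-fat diet the same 5 genes fell with the sugar drink and none rose, where 30.6% of all genes were called and 14.0% of all genes were lower. Falling on both diets was shared by 6.06% of all genes (674 genes). The median difference of the 8 genes was −0.45 on the normal diet and −0.53 on the high-fat diet, where the medians of all genes were both −0.01. These livers are bulk tissue, so fewer cells of a type and less RNA per cell cannot be told apart.

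Scd1, the main hepatic stearoyl-CoA desaturase, makes oleic and palmitoleic acid from saturated precursors, and it had the lowest values in the sugar-fed livers. In high-sugar livers its intensity ran from 710.1 through a median of 1549 to 3337, against 6478, 9280 and 10540 in control livers. The groups did not overlap, and every high-sugar sample lay below every control sample. The difference was −2.50 ± 0.29 (limma, adjusted p = 6.59e-07), 5.65-fold lower, the 2nd lowest difference of the 11115 genes. In high-fat high-sugar livers the lowest, median and highest values were 953.2, 2759 and 3978, against 6252, 8128 and 11400 in high-fat livers. These groups did not overlap either, and Scd1 fell by 3.23-fold (−1.69 ± 0.29, adjusted p = 6.42e-05), the 8th lowest of all genes. The sugar-fed groups were also the more scattered: the SD of log2 values was 0.71 in high-fat high-sugar and 0.81 in high-sugar livers, and 0.31 in high-fat and 0.26 in control livers. The fit shares a single spread over all groups, so the standard errors, intervals and p-values given for Scd1 do not follow these unequal SDs.

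Fat alone gave no call for Scd1. High-fat and control livers overlapped, with a difference of −0.11 (95% interval −0.70 to 0.49, adjusted p = 0.849). Among livers given the sugar drink the difference between high-fat high-sugar and high-sugar was 0.70 ± 0.29 (adjusted p = 0.149), and 5 of 6 high-fat high-sugar samples lay above the high-sugar mean. That comparison passed the threshold without high-sugar replicate 1 (0.93, adjusted p = 0.0322) or without high-fat high-sugar replicate 6 (0.97, adjusted p = 0.0222). Over all 24 fits that left out a sample it ran from 0.49 to 0.97, with adjusted p up to 0.339. High-sugar replicate 1 held the highest Scd1 of its group and high-fat high-sugar replicate 6 the lowest of its own.

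**Figure D1:**
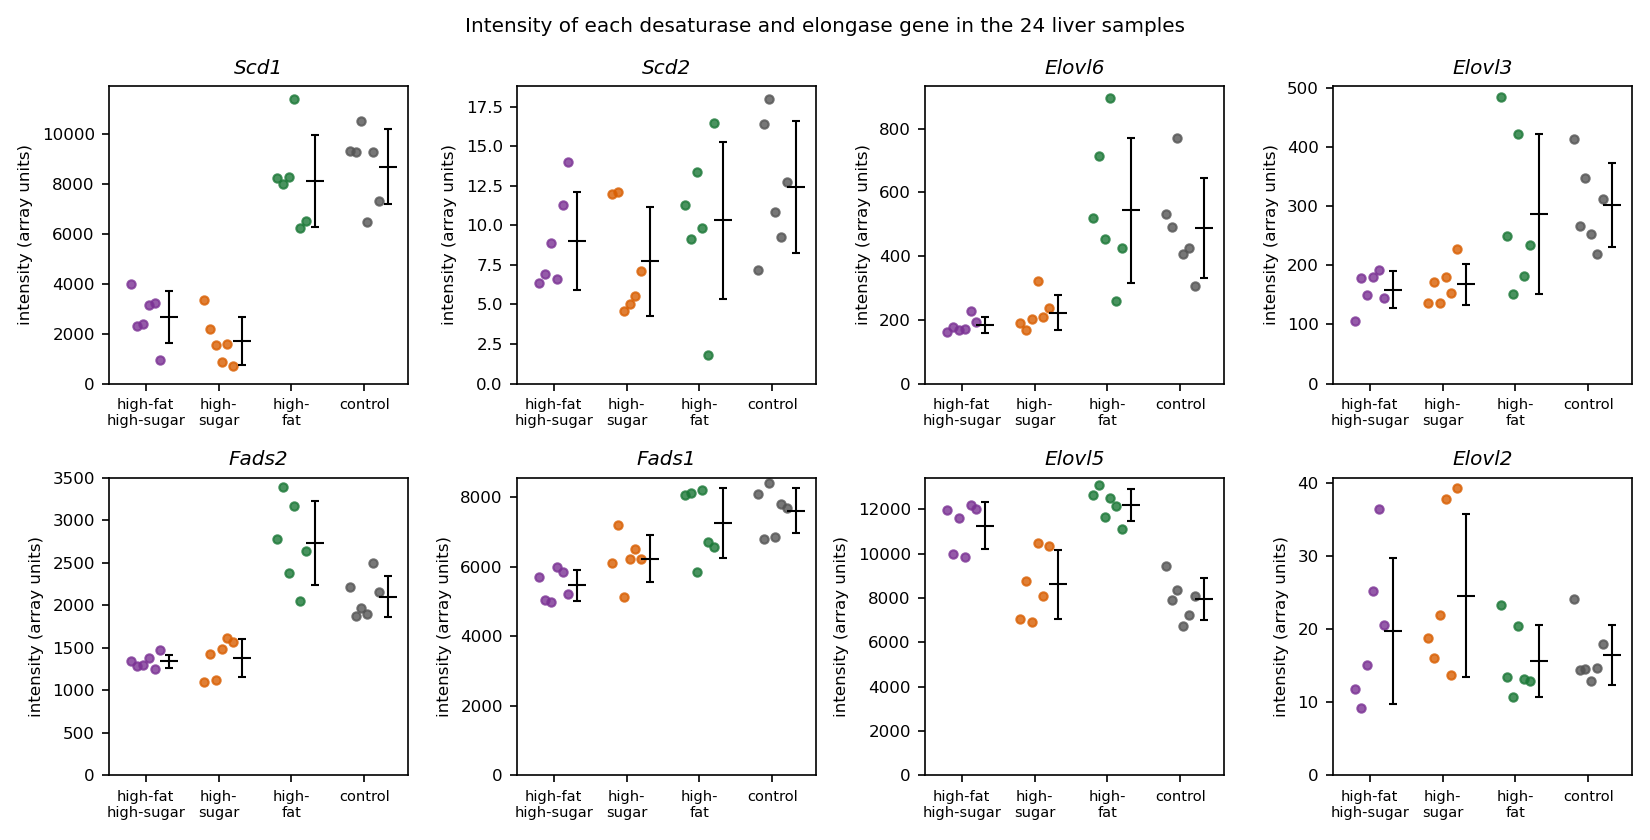
Intensity in array units of each gene's tested probe in 24 liver samples, with 1 point per sample, the group mean as a horizontal line and the SD as bars (n = 6 per group). Scd1 and Fads2 of both sugar-fed groups lie below all samples of the groups given plain water, and Elovl5 of high-fat livers lies above all control samples.

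Elovl6, which lengthens palmitic to stearic acid, fell with the sugar drink on both diets. In high-fat high-sugar livers it ran from 162.9 through 175.4 to 228.1, against 258.5, 486.1 and 897.1 in high-fat livers. The groups did not overlap, and the difference was −1.33 ± 0.20 (2.51-fold lower, adjusted p = 1.53e-05), the 15th lowest of all genes. In high-sugar livers the values were 166.5, 206.8 and 323.2, against 305.9, 458.1 and 769.4 in control livers. A single high-sugar sample, at 323.2, lay above the lowest control sample, and the difference was −1.01 ± 0.20 (2.02-fold lower, adjusted p = 0.000442), the 20th lowest. Fat gave no call, with 0.10 (95% interval −0.31 to 0.52) with plain water and −0.21 (−0.63 to 0.20) with the sugar drink. A further Elovl6 probe stayed under the noise limit on all 24 arrays and carries no information.

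Elovl3, an elongase of saturated and monounsaturated fatty acids that is known in mouse liver for its dependence on sex and time of day, also fell with the sugar drink on both diets. Its lowest, median and highest values were 136.1, 162.5 and 227.8 in high-sugar livers, against 218.6, 288.8 and 414.1 in control livers. The ranges overlapped, and the difference was −0.73 ± 0.19 (1.66-fold lower, adjusted p = 0.00546). In high-fat high-sugar livers the values were 106.1, 163.8 and 191.7, against 150.7, 241.8 and 484.0 in high-fat livers. These ranges overlapped too, at −0.66 ± 0.19 (1.58-fold lower, adjusted p = 0.011). In both comparisons 6 of 6 samples given the sugar drink lay below the mean of the samples given plain water. Elovl3 was not called with fat, at −0.14 with plain water (adjusted p = 0.674) and −0.07 with the sugar drink (adjusted p = 0.892). Its high-fat samples were spread most widely, 3.21-fold from lowest to highest.

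Fads2, the desaturase that acts first on linoleic and alpha-linolenic acid, is measured by a brighter and a dimmer probe. On the brighter probe high-fat high-sugar livers had 1254, 1318 and 1470, against 2046, 2707 and 3389 in high-fat livers. The groups were apart, and the difference was −0.996 ± 0.11 (1.995-fold lower, adjusted p = 1.67e-07). High-sugar livers had 1090, 1456 and 1612, against 1875, 2059 and 2498 in control livers. These groups were also apart, at −0.60 ± 0.11 (1.52-fold lower, adjusted p = 0.000163). Of the 8 genes, 2 (Scd1 and Fads2) were lower with groups apart on the normal diet, where 4.55% of all genes were. On the high-fat diet 3 (Scd1, Elovl6 and Fads2) were, against 5.44% of all genes.

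The brighter Fads2 probe was higher with the high-fat diet and plain water, by 0.36 ± 0.11 (1.29-fold, adjusted p = 0.0207), with overlapping groups and 5 of 6 high-fat samples above the control mean. This call ended without high-fat replicate 2 (0.30, adjusted p = 0.0668), without high-fat replicate 4 (0.32, adjusted p = 0.0542) and when the gene's probes were averaged (0.12, adjusted p = 0.479). With the sugar drink the difference between high-fat high-sugar and high-sugar livers was −0.03 (95% interval −0.26 to 0.19).

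The dimmer Fads2 probe also fell with sugar on both diets, and fat gave no call with either drink. Its lowest, median and highest values were 333.6, 441.5 and 562.8 in high-fat high-sugar livers, 240.9, 405.5 and 475.5 in high-sugar livers, 725.3, 828.7 and 930.3 in high-fat livers and 683.7, 866.0 and 1114 in control livers. With p-values adjusted over the 20216 probes kept, the differences with sugar were −1.18 ± 0.13 on the normal diet (adjusted p = 2.19e-07, with 28.0% of probes called) and −0.86 ± 0.13 on the high-fat diet (adjusted p = 1.17e-05, with 29.6% called). With fat and plain water, where 15.6% of probes were called, the difference was −0.12 ± 0.13 (adjusted p = 0.605). With fat and the sugar drink it was 0.21 ± 0.13 (adjusted p = 0.41), and 5 of 6 high-fat high-sugar samples lay above the high-sugar mean. Within arrays the pair of probes moved by unequal amounts, in a comparison added after the data were seen. The log2 difference of the brighter from the dimmer probe was 0.58 greater in high-sugar than in control livers, at 1.77 ± 0.16 and 1.19 ± 0.27 (SD, n = 6 each; exact permutation test over samples, adjusted p = 0.00866). It was 0.48 greater in high-fat than in control livers, at 1.67 ± 0.22 and 1.19 ± 0.27 (SD, n = 6 each; exact permutation test, adjusted p = 0.0173). Between high-fat high-sugar and high-fat livers it differed by −0.13 (exact permutation test, adjusted p = 0.322, n = 6 each). Which transcripts each probe reads is not given in the sources used here.

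**Figure D2:**
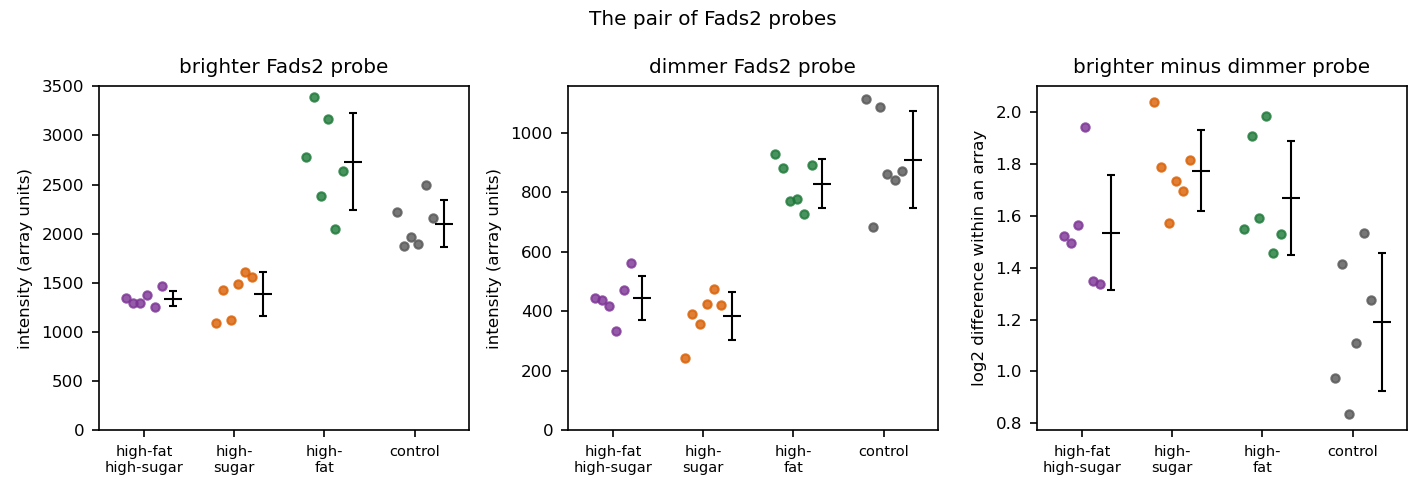
Intensity in array units of the brighter and the dimmer Fads2 probe, and the log2 difference between them within each array, in 24 liver samples with group means and SD (n = 6 per group). Both probes are lower in sugar-fed groups, and the within-array difference is lowest in control livers, at 1.19 ± 0.27.

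Fads1, the desaturase that completes arachidonic and eicosapentaenoic acid and lies beside Fads2 in the genome, had the smallest falls among the 5 genes. High-fat high-sugar livers had 4977, 5454 and 5985, against 5841, 7376 and 8204 in high-fat livers. The ranges overlapped at their ends, and the difference was −0.40 ± 0.09 (1.32-fold lower, adjusted p = 0.001). High-sugar livers had 5120, 6218 and 7203, against 6806, 7752 and 8392 in control livers. These overlapped, at −0.29 ± 0.09 (1.22-fold lower, adjusted p = 0.0145), and the call ended when the gene's probes were averaged (−0.19, adjusted p = 0.0531). Fat gave −0.08 with plain water (adjusted p = 0.612) and −0.19 with the sugar drink (adjusted p = 0.217). The dimmer Fads1 probe, whose samples ran only from 9.43 to 31.99, was called lower with the sugar drink on the high-fat diet (−0.31 ± 0.08, adjusted p = 0.00613) and not on the normal diet (−0.09, adjusted p = 0.476).

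Elovl5, the elongase of the shorter polyunsaturated fatty acids, rose with fat with either drink, and sugar gave no call on either diet. Its lowest, median and highest intensities were 11130, 12340 and 13130 in high-fat livers, against 6735, 7984 and 9458 in control livers. The groups were apart, and Elovl5 rose by 1.54-fold (0.62 ± 0.10, adjusted p = 6.74e-05). In high-fat high-sugar livers they were 9841, 11790 and 12210, against 6895, 8441 and 10510 in high-sugar livers. These ranges overlapped, and Elovl5 rose by 1.32-fold (0.40 ± 0.10, adjusted p = 0.00959), with 6 of 6 samples above the high-sugar mean. The sugar drink gave 0.10 on the normal diet (95% interval −0.10 to 0.30, adjusted p = 0.471) and −0.12 on the high-fat diet (−0.32 to 0.08, adjusted p = 0.383), where 6 of 6 high-fat high-sugar samples lay below the high-fat mean.

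Fat with plain water thus called 2 of the 8 genes, Elovl5 and Fads2, both higher, where 17.9% of all genes were called and 9.07% were higher. In that comparison 1 of the 8 genes (Elovl5) was higher with groups apart, where 3.27% of all genes were. With the sugar drink fat called 1 gene, Elovl5, where 7.87% of all genes were called and 4.35% were higher, and none of the 8 genes was higher with groups apart, where 1.8% of all genes were.

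Elovl2, which elongates the longer polyunsaturated fatty acids towards docosahexaenoic acid, was dim. Its samples ran from 9.19 through 17.9 to 36.4 in high-fat high-sugar livers, from 13.7 through 20.4 to 39.3 in high-sugar livers, from 10.7 through 13.3 to 23.3 in high-fat livers and from 12.9 through 14.6 to 24.2 in control livers. All groups overlapped and no difference was called, with 0.21 (95% interval −0.03 to 0.44) for sugar on the normal diet and 0.10 (−0.13 to 0.34) on the high-fat diet. Scd2, a desaturase known mainly from brain and from the liver of newborn mice, exceeded the noise limit on 19 of 24 arrays. Its samples ran from 6.35 to 14.0 in high-fat high-sugar, from 4.597 to 12.1 in high-sugar, from 1.82 to 16.5 in high-fat and from 7.19 to 17.99 in control livers. The difference with sugar was −0.16 on the normal diet (adjusted p = 0.133) and −0.04 on the high-fat diet (adjusted p = 0.744). The offset of 32 exceeded the signal in every Scd2 sample and in all but 3 of the 24 Elovl2 samples, so neither gene gives a firm bound.

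**Figure D3:**
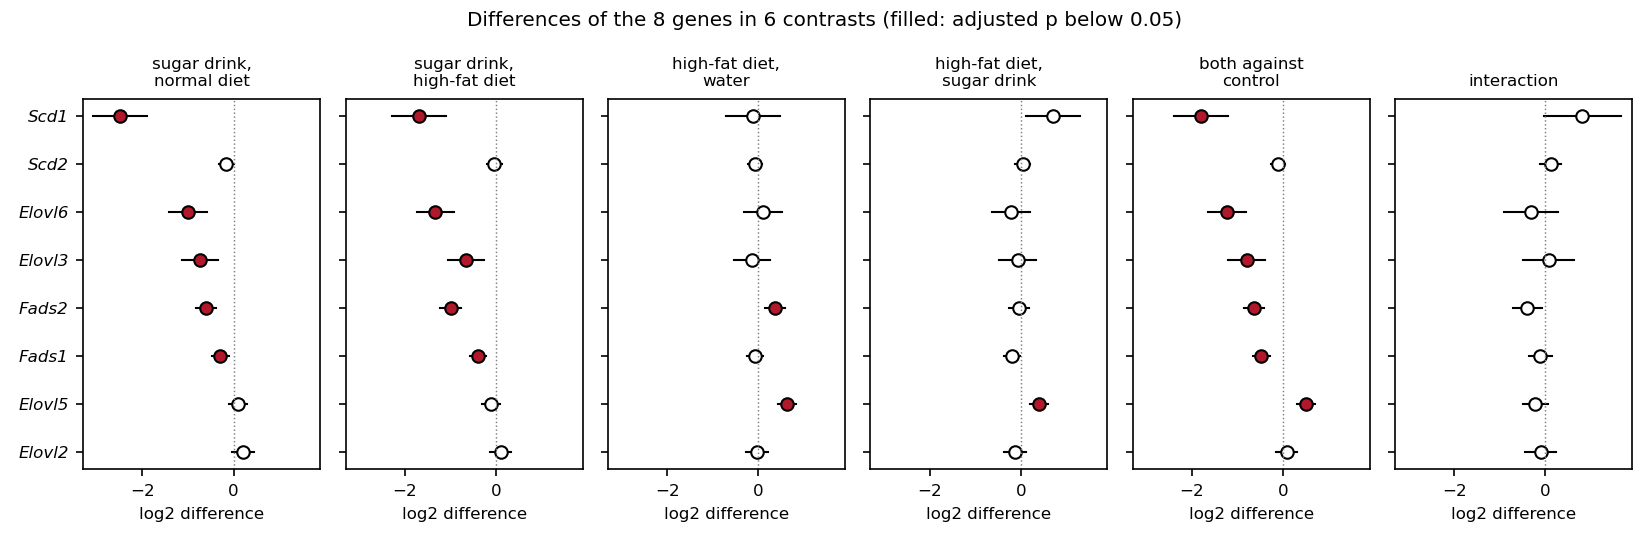
Log2 difference of intensity plus 32 for each gene in 6 contrasts, with 95% intervals, where filled points passed an adjusted p of 0.05. The interaction subtracts the normal-diet sugar difference from the high-fat one. Scd1, Elovl6, Elovl3, Fads2 and Fads1 lie left of 0 in both sugar contrasts, Elovl5 lies right of 0 in both fat contrasts, and no interaction passed.

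With both treatments, high-fat high-sugar against control, 5 genes fell and 1 rose, where 35.5% of all genes were called, 16.5% lower and 19.0% higher. All 6 called genes had groups that did not overlap, as had 14.2% of all genes. Scd1 was 3.48-fold lower (−1.80 ± 0.29, adjusted p = 2.72e-05) and Elovl6 2.34-fold lower (−1.22 ± 0.20, adjusted p = 3.73e-05). Elovl3 was lower by 1.74-fold, Fads2 by 1.55-fold and Fads1 by 1.39-fold, with adjusted p-values of 0.00193, 5.87e-05 and 0.00014. Elovl5 was 1.42-fold higher (0.50 ± 0.10, adjusted p = 0.000219).

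The difference between the sugar effects on the 2 diets was tested as an interaction, which called none of the 8 genes by limma at an adjusted p below 0.05, where 2.47% of all genes were called. For Scd1 the sugar effect was 0.81 less negative on the high-fat diet (95% interval −0.03 to 1.648, unadjusted p = 0.0584, adjusted p = 0.303). For the brighter Fads2 probe it was more negative on the high-fat diet, at −0.39 (−0.71 to −0.08, unadjusted p = 0.0163, adjusted p = 0.163). The dimmer Fads2 probe went the other way, at 0.32 (−0.05 to 0.70, adjusted p = 0.372). Of the 8 genes 1, Fads2, had an unadjusted interaction p below 0.05, where 18.0% of all genes did. The 4 group means of each gene fell in the same order of drink for Scd1, Elovl6, Elovl3, Fads2 and Fads1, with both sugar-fed groups below both groups given plain water. Between groups with the same drink, the test called Fads2 between high-fat and control livers and none of the other 4 genes.

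Genes were also compared within an array, in 6 probe pairs chosen after the data were seen. Their p-values are adjusted over these pairs only and do not account for that choice, so they describe the pairs. The log2 difference of Scd1 from Elovl6 was 2.61 ± 1.04 in high-sugar and 4.10 ± 0.27 in control livers (SD, n = 6 each). Scd1 fell by more (−1.49, exact permutation test, adjusted p = 0.0173 over 24 tests of 6 probe pairs in 4 contrasts). Scd1 also fell by more than Fads2 on the normal diet, with a difference of −1.90 (exact permutation test, adjusted p = 0.00866, n = 6 each). On the high-fat diet the difference of Scd1 from Elovl6 moved by −0.36 (exact permutation test, adjusted p = 0.381, n = 6 each). There the difference of Scd1 from Fads2 moved by −0.69 (exact permutation test, adjusted p = 0.044, n = 6 each), a call that ended in 10 of 12 fits that left out a sample, with adjusted p up to 0.115. The difference of Elovl6 from Elovl3 moved by −0.28 with sugar on the normal diet (exact permutation test, adjusted p = 0.249, n = 6 each). On the high-fat diet it moved by −0.67 (exact permutation test, adjusted p = 0.0433, n = 6 each), a call that ended in 9 of 12 fits without a sample.

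In another of these chosen pairs, Fads2 fell by more than its neighbour Fads1 with the sugar drink. The within-array difference moved by −0.31 on the normal diet (exact permutation test, adjusted p = 0.0208, n = 6 each) and by −0.60 on the high-fat diet (exact permutation test, adjusted p = 0.00866, n = 6 each). With fat and plain water the Fads2 probe stood 0.44 higher against Fads1 than in control livers (exact permutation test, adjusted p = 0.0148, n = 6 each). These values are of the brighter Fads2 probe. Elovl5 and Elovl6 parted in 3 of the 4 comparisons. Their difference was 1.11 greater in high-sugar than in control livers and 1.21 greater in high-fat high-sugar than in high-fat livers. It was 0.61 greater in high-fat high-sugar than in high-sugar livers. The exact permutation test gave an adjusted p of 0.00866 for all 3, with n = 6 each, and 0.00216 is the smallest unadjusted p that the 924 splits can give.

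Group accounted for 84.2% of the variance of Fads2 over the 24 samples, 80.8% of that of Scd1, 72.9% of Elovl6, 72.6% of Elovl5, 63.4% of Fads1 and 51.2% of Elovl3. It accounted for 17.8% of the variance of Scd2 and 17.6% of that of Elovl2, where the median of all genes was 37.4%. What remained was correlated between some of the genes once each group's mean was taken away. Of the 28 pairs of genes 21 had a positive Pearson's r over the 24 samples, from −0.35 to 0.61 in all, and Spearman's rho ran from −0.16 to 0.65. After adjustment over the 28 pairs, 1 pair passed by Pearson's r and 7 by Spearman's rho (permutation tests with 100000 draws). No matching counts were made for pairs of other genes, so whether these counts are particular to this family was not tested.

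The pair that passed by both was Elovl2 with Elovl3 (r = 0.60, adjusted permutation p = 0.00308; rho = 0.61, adjusted permutation p = 0.0274; r = 0.57 without the 2 samples farthest from the median). Elovl3 with Elovl6 had r = 0.53 (adjusted permutation p = 0.144) and rho = 0.65 (adjusted permutation p = 0.0387), with r = 0.48 without the 2 farthest samples. Fads1 with Fads2 had r = 0.60 (adjusted permutation p = 0.0783) and rho = 0.59 (adjusted permutation p = 0.0423), with r = 0.51 without them. Scd1 passed with no other gene. It came nearest with Fads1, at r = 0.32 (adjusted permutation p = 0.27) and rho = 0.49 (adjusted permutation p = 0.0549). Its r with Elovl6 was 0.05 (adjusted permutation p = 0.915, rho = 0.06 with adjusted permutation p = 0.898), although both genes fell with sugar on both diets. These points share their arrays and normalisation.

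**Figure D4:**
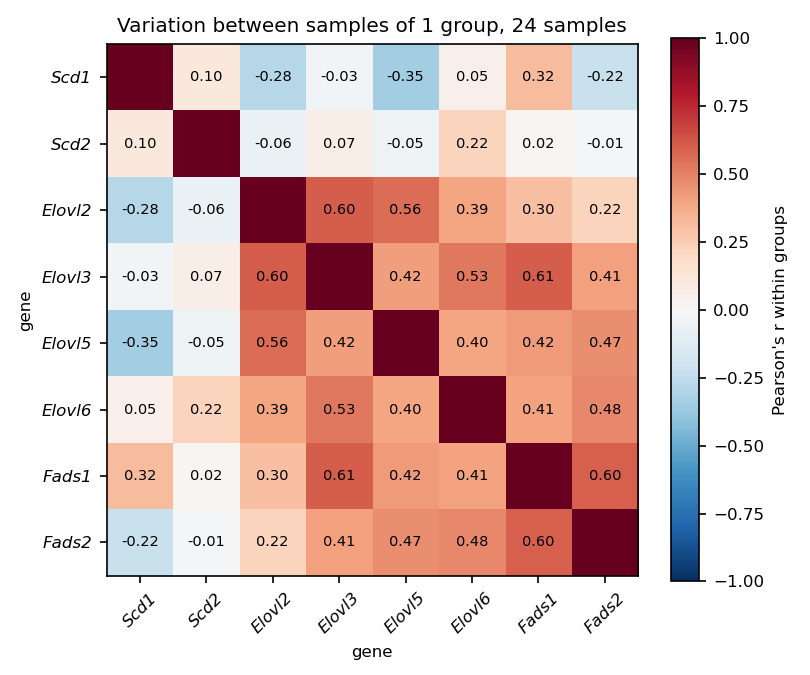
Pearson's r between each pair of the 8 genes over 24 samples after each group's mean was taken away, with genes on both axes and r by colour and number. The elongases Elovl2, Elovl3, Elovl5 and Elovl6 and the pair Fads1 and Fads2 have positive values, up to 0.61, and Scd1 runs from −0.35 to 0.32.

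Over all 24 samples, group differences included, the genes with patterns most like each member were named by the highest Pearson's r, as a description. They were taken from the genes tested with the desaturase and elongase family left out, so no member could be named for another. For Scd1 they were Dag1 (r = 0.91), Rnd2 (0.90) and Ugt1a2 (0.90). For Fads2 they were Acacb, the mitochondrial form of acetyl-CoA carboxylase (0.92), Tmem201 (0.91) and Rtf2 (0.90). For Elovl6 they were Rnf166 (0.85), Pltp, a plasma phospholipid transfer protein (0.85), and Ctdsp2 (0.84). For Elovl5 they were Cldn1 (0.88), Lrp10 (0.88) and Plin2, a lipid droplet coat protein (0.87). Fads1 was most like Bckdha, a subunit of branched-chain keto acid dehydrogenase (0.84), Lpin2, a phosphatidate phosphatase (0.83), and Chchd5 (0.80), and Elovl3 most like Zfp574 (0.86), Nsmf (0.85) and Rab22a (0.82). The dim genes had lower values, up to 0.79 for Elovl2 and up to 0.66 for Scd2.

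Other genes of the pathway were read from the same fit, by lists. Beside their counts, 28.9% of all genes were called with sugar on the normal diet and 30.6% on the high-fat diet. With fat the shares were 17.9% with plain water and 7.87% with the sugar drink. No list was tested against them. Of 9 further desaturase and elongase genes 6 were measured. With sugar on the normal diet 1 rose and 2 fell, with sugar on the high-fat diet 1 rose, and with fat 1 rose with either drink. Degs1, the desaturase of dihydroceramide, averaged 1023 ± 70.2 in high-sugar and 673.7 ± 140.0 in control livers (SD, n = 6 each), a rise of 0.60 ± 0.11 (limma, adjusted p = 0.000188), and it rose by 0.49 ± 0.11 with sugar on the high-fat diet (adjusted p = 0.00114). Elovl1, an elongase of very long saturated chains, averaged 924.5 ± 120 in high-fat high-sugar and 679.1 ± 93.6 in high-sugar livers (SD, n = 6 each; 0.43 ± 0.11, limma, adjusted p = 0.0124). Its rise with fat and plain water (0.31, adjusted p = 0.0491) ended under 7 of 14 other settings and in 15 of 24 fits that left out a sample. Fads3 averaged 6.34 in high-sugar livers, under the noise limit, and 17.2 in control livers (limma, adjusted p = 0.00192, which rose to 0.0807 with a floor of 16).

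The next list held other enzymes of the elongation cycle, together with cytochrome b5 genes and their reductases, some of which carry electrons to desaturases. Of 12 genes 10 were measured: 2 rose and 2 fell with sugar on the normal diet, 4 rose and 1 fell with sugar on the high-fat diet, 2 rose and 2 fell with fat and plain water, and 1 rose with fat and the sugar drink. Cyb5a, a cytochrome b5 that can hand electrons to desaturases, averaged 13720 ± 619 in high-sugar and 10860 ± 1265 in control livers (SD, n = 6 each), a rise of 0.34 ± 0.07 (limma, adjusted p = 0.000384). On the high-fat diet Cyb5a rose by 0.43 ± 0.07 with sugar (adjusted p = 2.05e-05) and Cyb5r4, a cytochrome b5 reductase, by 0.47 ± 0.08 (adjusted p = 6.23e-05). Cyb5r3, the main cytochrome b5 reductase, fell by 0.47 with sugar on the normal diet (adjusted p = 0.00106) and by 0.50 with fat and plain water (adjusted p = 0.00133). Hacd3, a dehydratase of the cycle, rose by 0.33 with fat and plain water (adjusted p = 0.00801), and Hacd1, another, by 0.52 with fat and the sugar drink (adjusted p = 0.00308).

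Of 12 genes of fatty acid synthesis 11 were measured. With sugar 1 fell on the normal diet, and 2 rose and 1 fell on the high-fat diet. Acacb was that fall on both diets: it averaged 190.5 ± 46.5 in high-fat high-sugar and 708.0 ± 86.3 in high-fat livers (SD, n = 6 each; −1.75 ± 0.14, limma, adjusted p = 2.11e-09), and it fell by 1.45 on the normal diet (adjusted p = 5.08e-08). Mid1ip1, a regulator of acetyl-CoA carboxylase, rose by 0.42 with sugar on the high-fat diet (adjusted p = 0.0267), a call that ended without high-fat high-sugar replicate 1 or 3 or high-fat replicate 4 (adjusted p up to 0.0813). With fat, 1 rose and 2 fell with plain water and 2 fell with the sugar drink. Thrsp, a lipogenic protein of liver and fat, averaged 647.7 ± 175 in high-fat and 3446 ± 1608 in control livers (SD, n = 6 each; −2.23 ± 0.27, limma, adjusted p = 2.49e-06), and it fell by 2.24 with fat and the sugar drink (adjusted p = 3.4e-06). Mid1ip1 fell by 0.82 with fat and plain water (adjusted p = 0.000214) and by 0.74 with fat and the sugar drink (adjusted p = 0.00162). The probe kept for Fasn, the fatty acid synthase, averaged between 4.13 and 7.25 in the 4 groups, close to the noise limit, so it says little about that gene.

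Of 15 lipogenic regulators 12 were measured. With sugar 2 rose and 1 fell on either diet. Srebf1, the gene of SREBP-1, averaged 80.1 ± 19.6 in high-fat high-sugar and 27.0 ± 10.9 in high-fat livers (SD, n = 6 each), a rise of 0.93 ± 0.13 (limma, adjusted p = 4.95e-06). Pparg rose by 0.73 ± 0.21 with sugar on the normal diet (adjusted p = 0.00972) and by 1.07 ± 0.21 on the high-fat diet (adjusted p = 0.00028), while Mbtps1, the site-1 protease that processes SREBPs, fell by 0.50 on the normal diet (adjusted p = 3.17e-05). With fat 1 rose and 5 fell with plain water, and 2 rose and 4 fell with the sugar drink. Srebf1 averaged 27.0 ± 10.9 in high-fat and 85.7 ± 22.7 in control livers (SD, n = 6 each; −0.997 ± 0.13, limma, adjusted p = 6.48e-06). Insig2, which holds SREBPs in the endoplasmic reticulum, rose by 0.88 with fat and plain water (adjusted p = 0.000308). With fat and the sugar drink Insig1 fell by 0.81 (adjusted p = 0.00136) and Ppargc1b, a coactivator of SREBPs, by 0.87 (adjusted p = 0.00121).

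**Figure D5:**
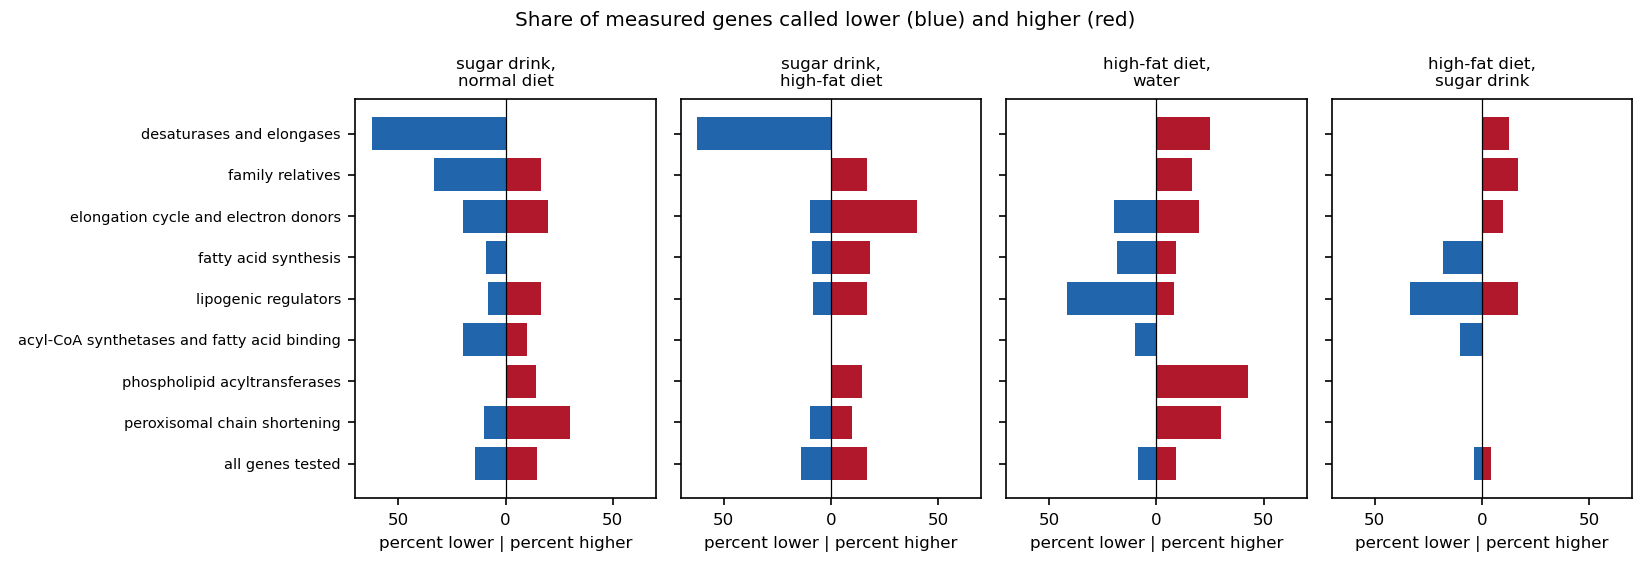
Percent of the measured genes of each list called lower (blue, left) and higher (red, right) in 4 contrasts, with the 8 desaturase and elongase genes in the top row and all 11115 genes tested in the bottom row. In the top row 5 of 8 genes are lower in each sugar contrast and none is higher, and in the bottom row 14.0% of genes are lower in each.

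Markers of liver cell types were set beside these results. The shares of all genes called were 28.9% with sugar on the normal diet and 30.6% on the high-fat diet. They were 17.9% with fat and plain water and 7.87% with fat and the sugar drink. The hepatocyte list, 9 of 10 markers measured, summed to between 70600 and 83620 in all 24 samples. This sum is weighted to its brightest genes, Ahsg, averaging from 27110 to 28200 in the 4 groups, and Apoa1, averaging from 20880 to 22610. It says little about the dimmer markers. Of the measured hepatocyte markers 3 rose and 1 fell with sugar on the normal diet, 2 rose and 1 fell with sugar on the high-fat diet and with fat and plain water, and 1 fell with fat and the sugar drink. Serpina1a rose with sugar by 0.93 on the normal and 0.75 on the high-fat diet (limma, adjusted p = 3.77e-05 and 0.000364), and Ttr by 0.50 and 0.54 (adjusted p = 2.26e-05 and 5.87e-06). Cps1 fell by 0.38 and 0.59 in these comparisons (adjusted p = 0.0226 and 0.000652), and Serpina1a fell by 0.85 with fat and plain water and by 1.03 with fat and the sugar drink (adjusted p = 0.000245 and 5.73e-05). The probe kept for Alb was dim, at group means from 61.0 to 152, and rose with sugar on the normal diet and with fat and plain water. With fat and plain water, where Elovl5 and Fads2 were higher, 5 of 7 measured macrophage markers (of 10 listed) were higher too. Their summed intensity was 2962 to 4793 in high-fat and 2537 to 2941 in control livers, with Adgre1 and Mpeg1 under the noise limit on average in control livers. In the same comparison 2 of 8 stellate cell and 2 of 8 endothelial markers were higher. With the sugar drink and fat 1 macrophage and 2 stellate cell markers were higher. With sugar 2 macrophage markers were higher on the normal diet, and 2 were higher and 1 lower on the high-fat diet, while 2 endothelial markers were higher and 2 lower on the normal diet and 3 lower on the high-fat diet. Summed macrophage markers were 3450 to 6184 in high-fat high-sugar livers and 2390 to 4337 in high-sugar livers. Of the adipocyte list only Lep, at 5.57 to 20.1, passed the filter, and Adipoq, Plin1, Fabp4, Retn, Cfd and Ucp1 did not. Of the cholangiocyte list 2 of 6 were measured and of the lymphocyte list 3 of 8. Their part in the desaturase and elongase differences was not tested.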

How the data were processed

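Liver RNA was labelled as biotinylated cRNA and hybridised to an Illumina bead array, 1 colour and 24 arrays. The authors processed the scans with GenomeStudio 2011.1, per the submitters' processing notes, and deposited a linear intensity for each of 45281 probes. The values show that they were background-subtracted (37.7% negative, lowest −13.0) and quantile-normalised (sorted columns differ by at most 0.231). A deposited table with 48 columns of non-normalised per-sample values was not used, since its column names match no sample label.

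The noise SD of an array was estimated from its negative values. A probe was kept if it exceeded 1.645 noise SD on at least 6 of 24 arrays, which left 20216 probes. Per gene the probe with the highest mean was taken (11115 genes). Symbols came from the array annotation, with 34807 of 34885 matched by gene identifier to a RefSeq symbol, which was then used. The build behind the array's probes is not given in the sources used here, so only RefSeq promoters have coordinates. An offset of 32 was added before log2, and limma 3.58.1 in R 4.3.3 fitted 1 mean per group and moderated variances along intensity (20 residual degrees of freedom, prior 6.95). P-values were two-sided and adjusted by Benjamini-Hochberg over all genes in each contrast. Of these steps only the limma fit was tested on simulated data, for the contrast of high-sugar against control. Within-array differences were tested by exact permutation over samples. They were added after the data were seen.

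The 8 genes and the pathway and marker lists were chosen with earlier results of these data known. Named by rule were all 8 genes and the 2 genes with the smallest adjusted p per pathway list and contrast (given where called, for the first 4 lists). So were the 3 genes outside these 8 most like each member. Marker genes and Fasn are named outside that rule.

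Same-numbered samples of different groups did not deviate together (36 pairs, r from −0.28 to 0.29, median 0.01, and 10 above 0.1), so the numbers were not taken to pair samples.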

Additional observations from a re-analysis of the deposited data

Results flagged for a closer look

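In the peroxisomal chain-shortening list, Decr2, the peroxisomal dienoyl-CoA reductase that acts on polyunsaturated fatty acids, differed between diets in its response to the sugar drink, by a test of the difference itself. Its interaction was −0.87 ± 0.21 (limma, adjusted p = 0.0233). It was the 1 gene called among the 10 measured in its list, and the other pathway lists had none, where 2.47% of all genes were called. Its control samples were widely spread, from 650.3 to 1572. How far this call depends on single samples was not examined. Decr2 averaged 1379 ± 153 in high-fat high-sugar and 1788 ± 115 in high-fat livers, a difference of −0.37 (adjusted p = 0.0534), and 1774 ± 268 in high-sugar and 1285 ± 353 in control livers, a rise of 0.50 (adjusted p = 0.0112; SD, n = 6 each). Among the 8 desaturase and elongase genes no such difference was called. In 40 sets of 6 samples (10 probes of these 8 genes in 4 groups) no sample stood apart by Dixon's test, which was not run on Decr2.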

How the results depend on the processing

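Each of the 19 called differences of the 8 genes was read again under the other settings, which gave 722 readings in all. All kept their direction. Many could not have done otherwise, since some settings change only the estimate of the variance. Leaving out a sample of a group not compared also leaves the difference itself unchanged. The call was lost in some readings for 2 differences: Fads1 with sugar on the normal diet and Fads2 with fat and plain water, as given above. With the sample number as a replicate block, which the numbers do not call for, 3195 genes changed with sugar on the normal diet and 3357 on the high-fat diet, and 5 of the 8 genes in each, so no call of the 8 genes moved. The 29 uncalled differences reversed in 16 of their 1094 readings under other settings. With the mean of a gene's probes, Fads1 with fat and plain water was 0.031 and Fads2 with fat and the sugar drink 0.086, and 1 of the 8 genes was called with fat and plain water. With a floor of 16, Elovl2 with fat and plain water was 0.022. The others came from leaving out single samples. Elovl2 then ran from −0.070 to 0.018 with fat and plain water (positive without control replicate 1 or high-fat replicate 3) and from −0.007 to 0.139 with both treatments. Elovl3 ran from −0.118 to 0.021 with fat and the sugar drink and from −0.065 to 0.235 in the interaction. Elovl6 ran from −0.054 to 0.282 with fat and plain water, Fads2 from −0.097 to 0.014 with fat and the sugar drink, and Scd2 from −0.103 to 0.001 with sugar on the high-fat diet. Leaving out single samples left 1 to 2 of the 8 genes called with fat and plain water and 1 to 2 with fat and the sugar drink. The genes changed in the interaction then numbered 161 to 449, against 275 with all samples, and 453 with array weights. Those changed with fat and the sugar drink numbered 535 (without high-fat high-sugar replicate 1) to 959, against 875. With every probe as a feature, which raises the number tested to 20216, 5658 probes changed with sugar on the normal diet, 5980 on the high-fat diet, 3154 with fat and plain water, 1425 with fat and the sugar drink, 6757 with both treatments and 509 in the interaction. Of the within-array differences, chosen after the data were seen, Elovl6 against Elovl3 on the high-fat diet (−0.67, exact permutation test, adjusted p = 0.0433) lost its call in 9 of 12 fits without a sample. Scd1 against Fads2 with fat and plain water (−0.47, adjusted p = 0.0283) lost it in 4. Elovl5 against Elovl6 with fat and plain water gained one without high-fat replicate 4 (0.67, adjusted p = 0.0346), and the difference between the Fads2 probes with fat and the sugar drink without high-fat high-sugar replicate 4 (−0.32, adjusted p = 0.013). The cause of these changes was not tested. Background correction with detection p-values was not run, since the non-normalised columns match no label, and the interaction has no fit on only its own groups. Signal over background limits Elovl2, Scd2 and the dimmer Fads1 probe.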

Other observations

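Lists next to the desaturases and elongases gave these counts from the same fit. Of all genes 28.9% were called with sugar on the normal diet and 30.6% with sugar on the high-fat diet. With fat 17.9% were called with plain water and 7.87% with the sugar drink. The counts were not tested against these shares. Of the 7 measured phospholipid acyltransferases (of 11), which place polyunsaturated fatty acids into membranes, 3 rose with fat and plain water, and 1 rose with sugar on either diet. Of the 10 measured genes of peroxisomal chain shortening (of 12), 3 rose and 1 fell with sugar on the normal diet, 1 rose and 1 fell with sugar on the high-fat diet, and 3 rose with fat and plain water. Of the 10 measured acyl-CoA synthetases and fatty acid binding genes (of 12), 1 rose and 2 fell with sugar on the normal diet, and 1 fell with fat with either drink.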
